A study of Mus musculus with 6 samples.

Results

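Vim, Axl and Cd44, a trio of genes often read as markers of mesenchymal cells, were followed across keratinocytes that differ in the transcription factors Ovol1 and Ovol2. They were taken as all probe sets that the platform annotation gives to these symbols alone, which came to 3 of 35556 probe sets, or 3 of 19938 named genes, with 1 probe set for each gene (10469322 for Vim, 10561104 for Axl and 10485405 for Cd44). Keratinocytes were isolated from the skin of C57BL/6 embryos at E18.5, grown in culture for 2 to 5 days under a no-calcium label, and profiled on 6 Affymetrix arrays, each holding RNA of 2 pooled mice. All samples carry a female label. The Ovol1/2 DKO arrays came from Ovol1-/- mice that were Ovol2flox/- and carried K14-Cre, a recombinase driven by a keratin promoter of basal keratinocytes, so that Ovol2 could be deleted in those cells. The labelled Ovol1 KO arrays came from Ovol1-/- mice with no Ovol2 allele named, and the control arrays from mice that were either Ovol2flox/+ with Ovol1+/- or Ovol2flox/+ with K14-Cre. Controls therefore carried a floxed Ovol2 allele and, in part, a heterozygous Ovol1 or the Cre transgene. There were 2 arrays in each of the 3 groups.

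Vimentin, the product of Vim, forms the intermediate filaments of fibroblasts and other mesenchymal cells, whereas epithelial cells build theirs from keratins. Axl is a receptor tyrosine kinase of the TAM family, named after Tyro3, Axl and Mer, and is activated by the secreted ligand Gas6. Cd44 is a cell surface receptor for the matrix sugar hyaluronan and is tied to the actin cortex through ezrin, radixin and moesin. In an epithelial to mesenchymal transition, in which epithelial cells lose junctions and gain motility, Vim and Axl are commonly reported to rise and Cd44 to switch from its long epithelial splice forms to the short standard form. Cultured basal keratinocytes are known to carry Cd44 as epithelial cells.

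The DNA just upstream of the 3 annotated starts is shown because Zeb1, a repressor that binds E2-box letters, rose in the Ovol1/2 DKO arrays. These are the 250 bases before each start from the RefSeq promoter table (GRCm38.p6), 5′ to 3′ on the gene's strand, for Vim at chr2:13574061-13574310 (plus strand), Axl at chr7:25788734-25788983 (minus strand) and Cd44 at chr2:102901666-102901915 (minus strand). Capitals mark core letters of promoter elements, TATAAA of the TATA box, CCAAT of the CCAAT box (read on the other strand as ATTGG) and GGGCGG of the GC box.
Vim: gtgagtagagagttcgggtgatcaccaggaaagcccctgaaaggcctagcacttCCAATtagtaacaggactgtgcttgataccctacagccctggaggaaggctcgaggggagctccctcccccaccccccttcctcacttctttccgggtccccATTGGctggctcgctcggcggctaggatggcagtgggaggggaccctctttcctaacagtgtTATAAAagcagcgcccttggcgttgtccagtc
Axl: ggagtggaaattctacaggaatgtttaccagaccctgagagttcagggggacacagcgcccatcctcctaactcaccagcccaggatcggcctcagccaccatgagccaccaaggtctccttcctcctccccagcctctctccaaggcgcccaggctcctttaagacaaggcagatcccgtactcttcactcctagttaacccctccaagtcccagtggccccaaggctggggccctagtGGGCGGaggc
Cd44: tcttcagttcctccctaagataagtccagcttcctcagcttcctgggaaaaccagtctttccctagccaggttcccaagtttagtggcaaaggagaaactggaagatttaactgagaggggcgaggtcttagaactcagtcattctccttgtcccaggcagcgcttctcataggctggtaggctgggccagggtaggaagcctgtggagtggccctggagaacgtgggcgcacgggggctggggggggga
The Vim window held TATAAA from -32 to -27 relative to the start and CCAAT letters on both strands, while the Axl window held GGGCGG from -10 to -5. No match overlaps another. Searched on both strands over 32851 windows of this length, TATAAA was found in 12.4%, CCAAT in 33.8% and GGGCGG in 32.7%. The E2-box letters CACCTG, present in 17.2% of windows, and the letters CCGTTA reported for Ovol proteins, present in 2.18%, were also searched on both strands. They are in none of the 3 windows, which says only that they are not within these bases.

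Values are given as levels, log2(intensity + 16), and differences on this scale understate the change of dim genes. Median intensity ran from 103.3 to 109.8 over the arrays, and the number of arrays limits the precision. Ovol1 stood at 5.96 and 6.22 in the Ovol1/2 DKO arrays, at 10.75 and 9.80 on the labelled Ovol1 KO arrays and at 9.64 and 9.95 in the control arrays. The label Ovol1 KO was thus not borne out by the Ovol1 signal, and every direction drawn from those arrays rests on that label. Ovol2 stood at 7.632 and 7.496 in the Ovol1/2 DKO arrays, at 7.88 and 8.38 on the labelled Ovol1 KO arrays and at 8.37 and 6.97 in the control arrays, so that the control arrays spanned Ovol1/2 DKO, while both Ovol1/2 DKO arrays lay below both labelled Ovol1 KO arrays. The Ovol1/2 DKO arrays also came from Ovol1-/- mice, and there the same Ovol1 probe set read far below control, at 5.96 and 6.22. This probe set thus gave low signal with that genotype, which the labelled Ovol1 KO arrays did not show. For Ovol2 no such reading was available, and the place of either probe set in its gene was not tested. Control replicate 1 and replicate 1 labelled Ovol1 KO lacked signal of Xist, which coats the inactive X (4.43 and 4.54, against 10.99 to 11.43 on the other 4 arrays). The Y-linked Eif2s3y stood at 13.80 on that replicate labelled Ovol1 KO, against the female label, but at 4.85 on control replicate 1. Differences without both arrays lacking Xist signal are given beside the results. They leave 1 control and 1 labelled Ovol1 KO array, so that the only replicate spread comes from the Ovol1/2 DKO pair, and they are printed with no p.

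Vim was high on both Ovol1/2 DKO arrays and varied widely among the others. It read 13.20 and 13.24 in Ovol1/2 DKO (intensity 9388 and 9691), 8.39 and 9.82 on the labelled Ovol1 KO arrays (intensity 319.5 and 889.6), and 11.13 and 9.92 in control (intensity 2218 and 954.0). The groups did not overlap, with Ovol1/2 DKO highest, control next and the labelled Ovol1 KO arrays lowest, although the last step in that order was only 0.10 wide between control replicate 2 and replicate 2 labelled Ovol1 KO. The spread between arrays was small in Ovol1/2 DKO (SD 0.03) and large on the labelled Ovol1 KO arrays (SD 1.01) and in control (SD 0.85, n = 2 each). Both Ovol1/2 DKO arrays lay above all the others, as they did for 12.8% of all genes.

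Axl differed little. It read 12.53 and 12.52 in Ovol1/2 DKO, 12.39 and 12.63 on the labelled Ovol1 KO arrays, and 12.50 and 12.49 in control. Ovol1/2 DKO and control were apart by 0.02, and the labelled Ovol1 KO arrays fell on either side of both. Its range over all 6 arrays was 0.24 on the log2 scale, against 4.85 for Vim and 0.53 for Cd44.

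Cd44 was slightly lower on the Ovol1/2 DKO arrays than on the control arrays. It read 12.27 and 12.34 in Ovol1/2 DKO, 12.24 and 12.71 on the labelled Ovol1 KO arrays, and 12.75 and 12.77 in control. Replicate 1 labelled Ovol1 KO lay below both Ovol1/2 DKO arrays and replicate 2 close to control, so that group spanned the Ovol1/2 DKO values. The Cd44 probe set is annotated to 6 RefSeq mRNA accessions and returns 1 value, so levels of single splice forms were not measured. The highest probe set value on an array was 17273 to 20215, and every value of Vim, Axl and Cd44 lay below it.

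**Figure D1:**
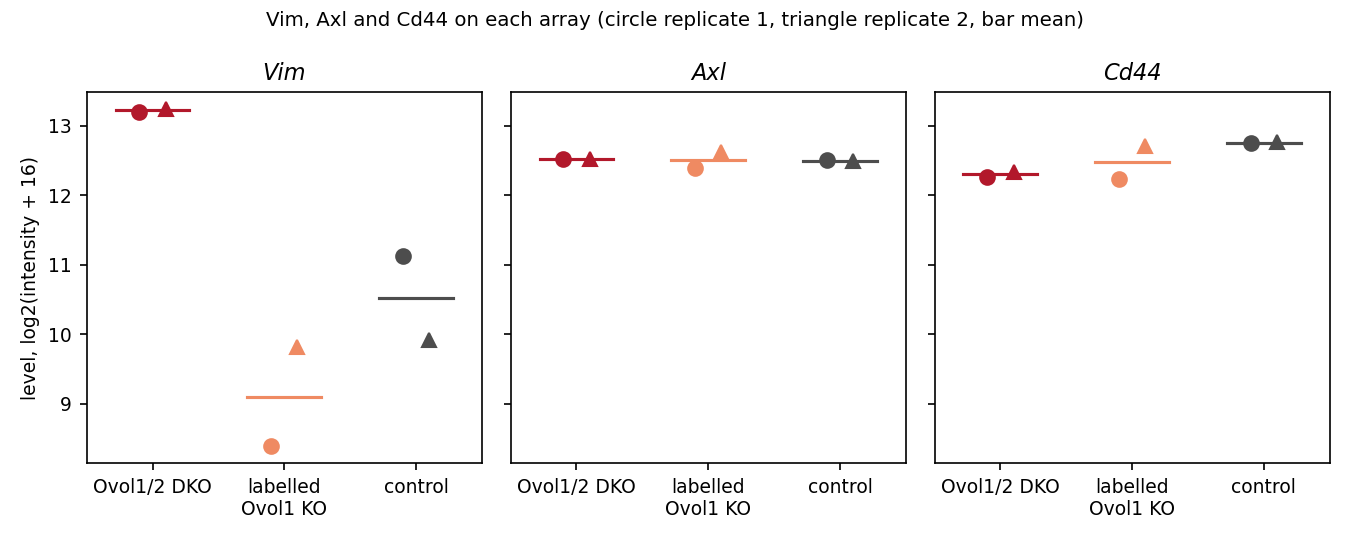
Level of Vim, Axl and Cd44, as log2(intensity + 16), on each of 6 arrays, with circles for replicate 1, triangles for replicate 2 and a bar at the mean of the 2 arrays of a group. Vim sits at 13.20 and 13.24 in Ovol1/2 DKO, above all other arrays, while Axl stays within a range of 0.24 and Cd44 within 0.53.

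Ovol1/2 DKO was first set against control, that is, arrays labelled as lacking both factors against the control genotypes named above. Vim averaged 13.22 ± 0.03 in Ovol1/2 DKO and 10.52 ± 0.85 in control (SD, n = 2 each), a difference of 2.70 (SE 0.54) or 6.49-fold, with a 95% interval of 2.64-fold to 15.96-fold. It did not pass (limma adjusted p = 0.0730, unadjusted p = 0.00187). Axl averaged 12.52 ± 0.01 in Ovol1/2 DKO and 12.50 ± 0.01 in control, with a difference of 0.02 (SE 0.19, limma adjusted p = 1.0). Its 95% interval of -0.44 to 0.49 spans 0.738 to 1.40 times the control value. Cd44 averaged 12.30 ± 0.05 in Ovol1/2 DKO and 12.76 ± 0.01 in control. The difference of -0.46 (SE 0.23, 95% interval -0.99 to 0.08) did not pass (limma adjusted p = 0.622).

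In all, 0 of the 3 genes passed, against 2.02% of all genes. Arrays of the groups did not overlap for 3 of 3, but neither did they for 39.2% of all genes. Vim and Axl were on the higher side, as were 21.1% of all genes, and Cd44 on the lower side, as were 18.1%. The Vim call turned on the arrays used: without control replicate 1 the difference was 3.30 (limma adjusted p = 0.0394), and without control replicate 2 it was 2.10 (adjusted p = 0.270). Without both arrays lacking Xist signal the differences were 3.30 for Vim, -0.47 for Cd44 and 0.03 for Axl.

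The second comparison set the labelled Ovol1 KO arrays against control. Vim averaged 9.11 ± 1.01 on the labelled Ovol1 KO arrays and 10.52 ± 0.85 in control, and the difference of -1.42 (SE 0.54, 95% interval -2.72 to -0.12) did not pass (limma adjusted p = 0.999, unadjusted p = 0.0366). Axl differed by 0.01 (SE 0.19) and Cd44 by -0.28 (SE 0.23), neither passing (limma adjusted p = 0.999 each). The 95% intervals were -0.45 to 0.47 for Axl and -0.82 to 0.25 for Cd44. No gene of 19938 passed here (0.00%; 153 at an unadjusted p under 0.05), and arrays did not overlap for Vim and Cd44, against 19.1% of all genes. Both were on the lower side, as were 10.3% of all genes, with 8.82% on the higher side. Both of these gaps were narrow, at 0.10 for Vim and 0.04 for Cd44. On the 4 arrays with Xist signal the differences were -0.10 for Vim, -0.05 for Cd44 and 0.13 for Axl, each from 1 array against 1.

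The third comparison set Ovol1/2 DKO against the labelled Ovol1 KO arrays, and shares arrays with both others. Vim rose: it averaged 13.22 ± 0.03 in Ovol1/2 DKO and 9.11 ± 1.01 on the labelled Ovol1 KO arrays, a difference of 4.12 (SE 0.54, 95% interval 2.82 to 5.41) or 17.3-fold (limma adjusted p = 0.0146). Axl differed by 0.01 (SE 0.19, limma adjusted p = 0.987) and Cd44 by -0.17 (SE 0.23, limma adjusted p = 0.821). The 95% interval of the Cd44 difference was -0.71 to 0.37. So 1 of the 3 genes passed, against 3.15% of all genes, and Vim was the one whose arrays did not overlap, as was the case for 43.1% of all genes, with 24.6% on the higher side as Vim was. Vim lost the call without replicate 1 labelled Ovol1 KO (3.40, limma adjusted p = 0.0621), without Ovol1/2 DKO replicate 1 (4.14, adjusted p = 0.0713) and without Ovol1/2 DKO replicate 2 (4.09, adjusted p = 0.0844). When both arrays lacking Xist signal were left out, the differences were 3.40 for Vim, -0.10 for Axl and -0.41 for Cd44.

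**Figure D2:**
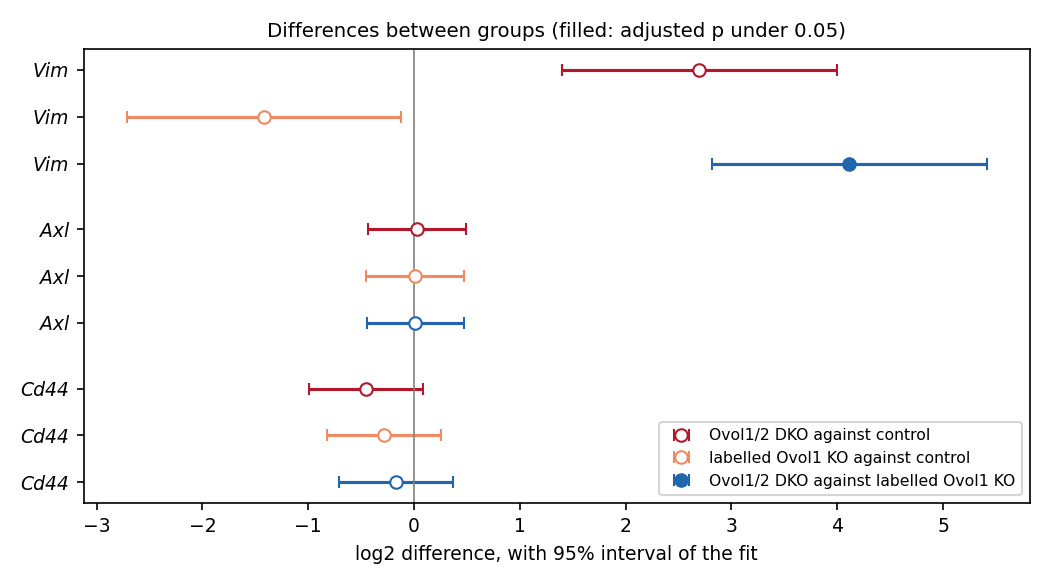
Log2 differences of Vim, Axl and Cd44 in the 3 comparisons, each with the 95% interval of the limma fit; filled points passed at an adjusted p under 0.05. Vim in Ovol1/2 DKO against labelled Ovol1 KO (4.12) is the filled point, and all Axl intervals lie between -0.45 and 0.49.

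Vim is 1 of the filament genes, so other filament genes were read beside it. Of 10 genes of other non-keratin filaments, nuclear lamins and filament linkers, 0 passed in any comparison. Of all genes 2.02% passed in Ovol1/2 DKO against control, and at most 3.15% in any comparison. The list median in Ovol1/2 DKO against control was 0.20, beside 0.03 over all genes. The largest of these differences from control belonged to Lmna, the gene of lamins A and C, at 0.43 (SE 0.19), and Plec, which links filaments to junctions, was at 0.41 (SE 0.34). Des, the muscle filament gene, and Ina, a neuronal one, stayed at or below 6.20 on every array. That level is the highest array median of the probe sets unnamed here and is called near background. Nes (5.10 to 6.39), Prph (5.83 to 6.45) and Gfap (6.14 to 6.61) did not rise far above it on any array. On the labelled Ovol1 KO arrays Nes, the gene of nestin, read 5.10 and 5.74, both below 6.20. Against those arrays Nes was 0.89 higher (SE 0.26) in Ovol1/2 DKO and Plec 0.95 higher (SE 0.34), neither passing. Without both arrays lacking Xist signal these were 0.57 and 0.45, and Plec passed in 1 of 19 alternatives, without replicate 2 labelled Ovol1 KO (adjusted p = 0.0464).

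Keratins, the epithelial counterpart of vimentin, fell in part. Of 10 keratin genes 4 fell and none rose in Ovol1/2 DKO against control, and likewise against the labelled Ovol1 KO arrays, where 1.40% and 1.91% of all genes fell. The list median was -1.12 against control, beside 0.03 over all genes. Krt8, a keratin of simple epithelia, read 10.45 and 10.89 in Ovol1/2 DKO, 12.13 and 12.64 on the labelled Ovol1 KO arrays and 12.27 and 12.65 in control. It fell by 1.79 against control (SE 0.28, limma adjusted p = 0.0316). Krt7, another simple keratin, fell by 2.54 (SE 0.37), Krt19 fell by 2.86 (SE 0.51) and the stress keratin Krt16 fell by 3.63 (SE 0.55). Krt19 fell to a mean of 6.22, close to background, and passed in 1 of the 6 fits that left out 1 array, while Krt16 passed in 2, Krt8 in 3 and Krt7 in 4. Here and below, leaving out either array of the group not compared gives the same fit, so the 6 hold 1 fit more than once. On the 4 arrays with Xist signal the differences from control were -1.98 for Krt8, -2.83 for Krt7, -3.22 for Krt19 and -3.54 for Krt16. Krt15 went the other way without passing. It read 7.90 and 9.27 in Ovol1/2 DKO, 7.32 and 6.81 on the labelled Ovol1 KO arrays and 7.30 and 6.40 in control. Its difference from control was 1.74, and 2.19 on the 4 arrays with Xist signal. Krt5 and Krt14, the keratin pair of basal keratinocytes, stayed between 13.21 and 13.55 on all arrays, while Vim ranged from 8.39 to 13.24.

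For Axl, the rest of the TAM family and its ligands were read. Of 4 genes (Tyro3, Mertk, Gas6 and Pros1) none passed in any comparison with all arrays and the settings as reported. At most 3.15% of all genes passed in any comparison. The ligand Gas6 read 10.61 and 11.58 in Ovol1/2 DKO, 10.01 and 9.41 on the labelled Ovol1 KO arrays and 9.78 and 9.73 in control. Both Ovol1/2 DKO values exceeded all others, as they did for 12.8% of all genes. The difference from control was 1.34 (SE 0.36, limma adjusted p = 0.181). Pros1, which encodes protein S, a TAM ligand and anticoagulant, read 9.81 and 10.33 in Ovol1/2 DKO, 8.32 and 7.60 on the labelled Ovol1 KO arrays and 8.90 and 7.86 in control. It was 1.69 higher in Ovol1/2 DKO than in control (SE 0.42, limma adjusted p = 0.136) and 2.11 higher than on the labelled Ovol1 KO arrays (adjusted p = 0.0517). Pros1 passed in 8 of 19 alternatives against the labelled Ovol1 KO arrays and in 2 against control, and Gas6 passed in 1 against the labelled Ovol1 KO arrays. Leaving out control replicate 1 gave Pros1 a difference from control of 2.21 (adjusted p = 0.0483). When both arrays lacking Xist signal were left out, the differences from control were 2.21 for Pros1 and 1.36 for Gas6, and those from labelled Ovol1 KO 2.46 and 1.69. The receptor Tyro3 differed by -0.27 (SE 0.36) and Mertk, near background in control, by 0.51 (SE 0.22). The list median was 0.93 in Ovol1/2 DKO against control, beside 0.03 over all genes. Genes of the Yap and Tead pathway, of which Axl is a reported target, were also listed. None of 12 passed in any comparison with the settings as reported, where at most 3.15% of all genes did. The list median was -0.13 in Ovol1/2 DKO against control. Tead2, a DNA-binding partner of Yap, was 1.36 higher than control (SE 0.30, adjusted p = 0.0974), and Amotl2, a Yap target, stood at -0.94 (SE 0.24, adjusted p = 0.147). Without both arrays lacking Xist signal these were 1.76 and -1.12. Tead2 passed in 2 of 19 alternatives against control, among them without control replicate 1 (1.76), and in 6 against the labelled Ovol1 KO arrays. Amotl2 passed in 1 and 2.

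For Cd44, enzymes of hyaluronan, cortex linkers and splicing regulators were read. Of 17 listed genes 15 had a probe set of their own. Of these 1 fell and none rose in Ovol1/2 DKO against control, where 1.40% of all genes fell. The same gene, Esrp2, fell against the labelled Ovol1 KO arrays, where 1.91% of all genes fell. Esrp1 and Esrp2 are epithelial splicing regulators known to favour the variant exons of Cd44. Esrp2 read 9.68 and 9.40 in Ovol1/2 DKO, 10.85 and 10.94 on the labelled Ovol1 KO arrays and 10.66 and 10.86 in control. It fell by 1.22 against control (SE 0.21, limma adjusted p = 0.0407), a call lost on leaving out any 1 of the 6 arrays, and it fell by 1.36 against the labelled Ovol1 KO arrays (SE 0.21, adjusted p = 0.0223), passing in 2 of the 6 fits that left out 1 array. Esrp1 read 10.30 and 10.21 in Ovol1/2 DKO, 11.67 and 11.23 on the labelled Ovol1 KO arrays and 11.59 and 11.24 in control. Ovol1/2 DKO did not overlap control, as was the case for 39.2% of all genes. The difference from control of -1.16 (SE 0.24) did not pass (limma adjusted p = 0.0789). On the 4 arrays with Xist signal the differences from control were -1.32 for Esrp2 and -0.99 for Esrp1.

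The cortex linkers that bind the Cd44 tail varied less. Ezr (ezrin) was at -0.47 (SE 0.20), Rdx (radixin) at 0.02 (SE 0.21) and Msn (moesin) at 0.19 (SE 0.22) in Ovol1/2 DKO against control, none passing. The hyaluronan synthase Has2 read 8.07 and 7.26 in Ovol1/2 DKO, 5.51 and 6.25 on the labelled Ovol1 KO arrays and 6.70 and 6.15 in control. It was 1.24 higher than control (SE 0.38) and 1.78 higher than the labelled Ovol1 KO arrays (SE 0.38), without passing (adjusted p = 0.247 and 0.0673). Has3 and the hyaluronan-degrading Cemip stood at -0.92 (SE 0.45) and -0.97 (SE 0.38) against control, neither passing. Cemip read 5.83 and 5.83 in Ovol1/2 DKO and 6.18 and 7.41 in control. Of these arrays only control replicate 2 lay above the near background level of 6.20. When both arrays lacking Xist signal were left out, the differences from control were 1.51 for Has2, -0.87 for Has3 and -1.58 for Cemip. The list median against control was 0.19, and 0.19 without those arrays.

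**Figure D3:**
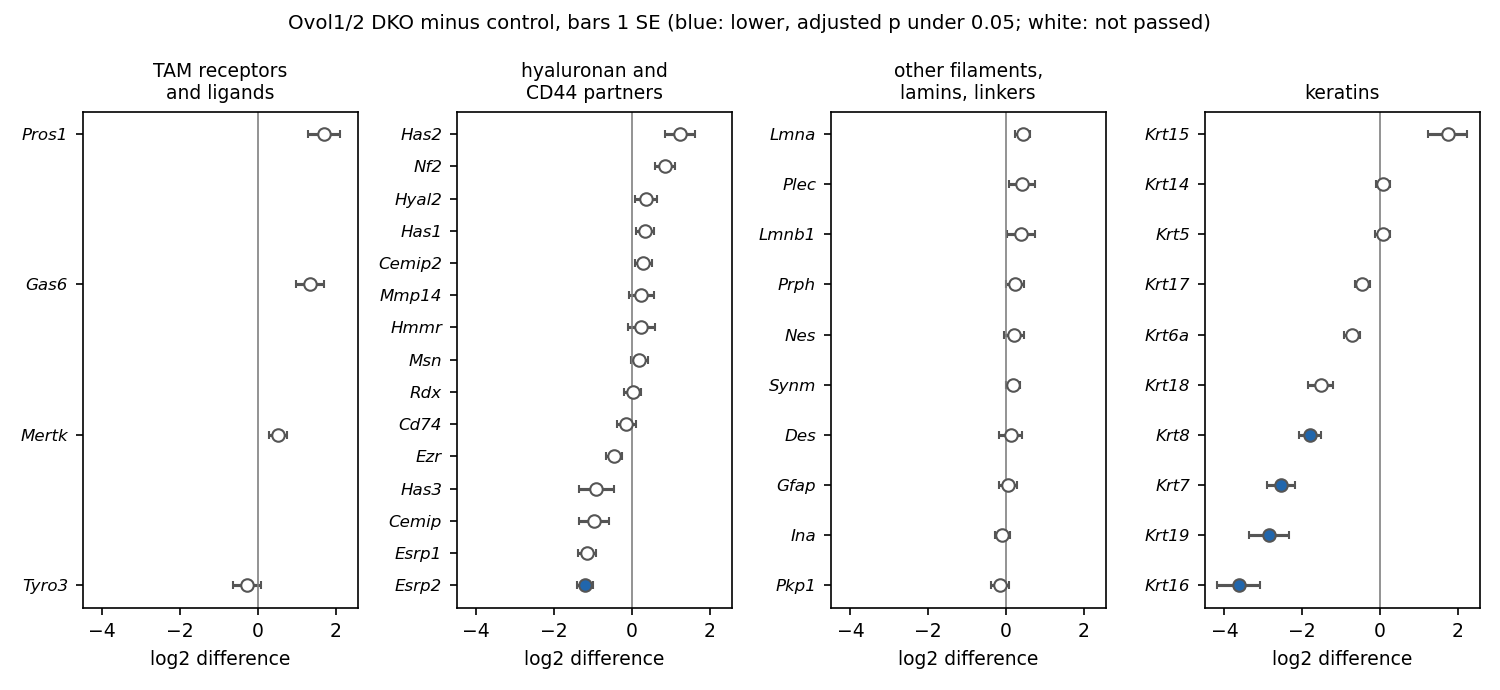
Log2 difference, Ovol1/2 DKO minus control, for genes listed beside Axl (TAM receptors and ligands), Cd44 (hyaluronan and CD44 partners) and Vim (other filaments, keratins), with bars of 1 SE; blue points fell at an adjusted p under 0.05 and white points did not pass. The blue points are Esrp2 (-1.22), Krt8 (-1.79), Krt7 (-2.54), Krt19 (-2.86) and Krt16 (-3.63).

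Other genes used as markers of a mesenchymal shift also divided. Of 17 such genes, 4 rose and 1 fell in Ovol1/2 DKO against control, and against the labelled Ovol1 KO arrays the counts were again 4 and 1, while 0.622% and 1.24% of all genes rose. Sparc, a secreted matrix glycoprotein, was 1.65 higher than control (SE 0.23, limma adjusted p = 0.0235) and 2.03 higher than the labelled Ovol1 KO arrays (SE 0.23, adjusted p = 0.0106), passing in 3 of the 6 fits that left out 1 array in each case. The list median against control was 0.57, beside 0.03 over all genes. The others that rose were Zeb1, Zeb2 and Tgfbi, and Cdh1, the epithelial cadherin, fell. The neural cadherin Cdh2 at 1.68 (SE 0.64) and the fibronectin gene Fn1 at 1.19 (SE 0.62) did not pass against control. Snai1, Twist1 and S100a4, also widely used markers, stood at 0.14 (SE 0.24), 0.18 (SE 0.21) and 0.10 (SE 0.41) against control, and none passed. Without both arrays lacking Xist signal Sparc was 1.85 higher, Cdh2 1.35 higher and Fn1 0.86 higher than control, while Snai1 and S100a4 turned to -0.10 and -0.42.

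The genes whose level was most like that of Vim over the 6 arrays were sought among 470 genes with a mean at or above the median gene and a range of at least 0.5 times that of Vim. They were Ltbp1 (Pearson r = 0.988), Vcan (0.986), Tll1 (0.985), Iqgap2 (0.979) and Fstl1 (0.975). Vcan, the gene of the proteoglycan versican, read 10.92 and 11.27 in Ovol1/2 DKO, 8.37 and 8.81 on the labelled Ovol1 KO arrays and 10.07 and 9.20 in control. Like Vim, it was highest in Ovol1/2 DKO and lowest in replicate 1 labelled Ovol1 KO, with control replicate 1 above control replicate 2. These correlations are descriptions over 6 arrays that share groups. By the same rule the genes most like Axl were Vpreb2 (r = 0.986), Zfp764 (0.971), Mir425 (0.970), Traf4 (0.963) and Rflnb (0.946), over an Axl range of 0.24. Those most like Cd44 were Acp1 (0.979), Lnx2 (0.970), Rc3h1 (0.969), Zswim6 (0.966) and Igf1r (0.953). Between the 3 genes themselves r was 0.332 for Vim and Axl, -0.275 for Vim and Cd44 and 0.464 for Axl and Cd44.

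**Figure D4:**
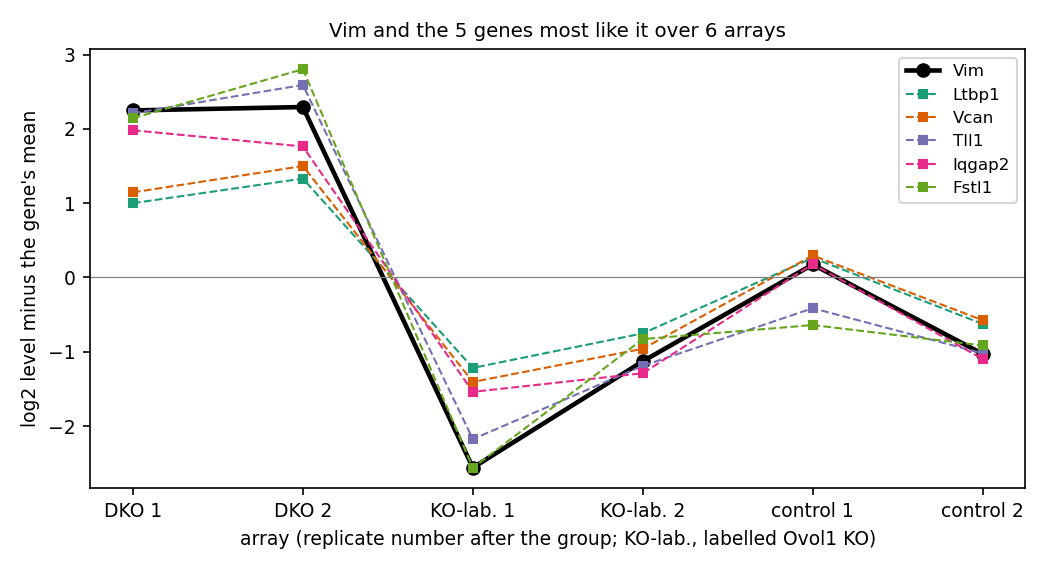
Level of Vim and of the 5 genes most like it, each minus its own mean over the 6 arrays (log2), with the replicate number after the group. All 6 genes are highest on the Ovol1/2 DKO arrays and lowest on replicate 1 labelled Ovol1 KO.

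Vim is also carried by fibroblasts, melanocytes, endothelium and leukocytes, so their markers were read on the same arrays. In bulk RNA, fewer cells of a type and less RNA per cell cannot be told apart. None of the 8 keratinocyte markers was at or below background on any array. None passed in Ovol1/2 DKO against control, where 2.02% of all genes did. Trp63 and Dst rose against the labelled Ovol1 KO arrays (1.097 and 1.336), as did 1.24% of all genes. Without both arrays lacking Xist signal the differences were 1.238 and 1.309. The 8 markers had a summed intensity of 50362 and 51948 in Ovol1/2 DKO, 44496 and 43812 on the labelled Ovol1 KO arrays and 47803 and 45326 in control. Among 12 fibroblast markers, 1 passed in Ovol1/2 DKO against control, Thy1 (1.67, SE 0.22), where 0.622% of all genes rose. The list median was 0.16. Their summed intensity was 4331 and 5531 in Ovol1/2 DKO, 2691 and 3247 on the labelled Ovol1 KO arrays and 2578 and 3240 in control, thus higher in Ovol1/2 DKO, as Vim was. Fbln1, the gene of the matrix protein fibulin 1, made up the largest part of that sum in Ovol1/2 DKO (intensity 2296 and 2650). It read 11.17 and 11.38 in Ovol1/2 DKO, 10.55 and 10.17 on the labelled Ovol1 KO arrays and 10.52 and 10.09 in control. Both Ovol1/2 DKO values lay above all the others, as they did for 12.8% of all genes. Postn, the gene of periostin, read 6.62 and 8.65 in Ovol1/2 DKO, 5.04 and 6.15 on the labelled Ovol1 KO arrays and 5.18 and 5.65 in control, also without overlap of Ovol1/2 DKO and the others. Their differences from control of 0.97 (SE 0.25) and 2.22 (SE 0.67) did not pass (adjusted p = 0.150 and 0.236). Ovol1/2 DKO and control thus did not overlap for 3 of the 12 markers, Thy1 included, against 39.2% of all genes. The other 9 markers overlapped between Ovol1/2 DKO and control. Among these, Col1a1 read 8.07 and 8.50 in Ovol1/2 DKO, 7.68 and 8.44 on the labelled Ovol1 KO arrays and 7.48 and 8.25 in control, overlapping between groups, and Lum was near background on all arrays. On the 4 arrays with Xist signal the differences from control were 1.68 for Thy1, 1.19 for Fbln1 and 1.98 for Postn, and the list median turned to -0.17. The part of these markers in the Vim result was not tested.

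Markers of the remaining cell types were read likewise. Of 9 melanocyte markers 0 passed in any comparison, where at most 3.15% of all genes did. Their summed intensity was 837.5 and 703.7 in Ovol1/2 DKO, 1184 and 902.8 on the labelled Ovol1 KO arrays and 1284 and 1409 in control. Tyr was near background throughout. The 8 endothelial markers summed to 656.0 and 649.4 in Ovol1/2 DKO, 568.7 and 600.9 on the labelled Ovol1 KO arrays and 935.9 and 786.0 in control, with Cdh5, Tek and Emcn near background. Of these, Pecam1 alone passed, in Ovol1/2 DKO against labelled Ovol1 KO (1.28, limma adjusted p = 0.0204), where 1.24% of all genes rose. Without both arrays lacking Xist signal its difference was 1.25. The 9 leukocyte markers summed to 1663 and 2988 in Ovol1/2 DKO, 5045 and 2585 on the labelled Ovol1 KO arrays and 2219 and 3108 in control, mostly from Cd68, with Cd207, Cd74 and Tyrobp near background on all arrays. Of the 4 Schwann cell markers with a probe set of their own, Erbb3, which epithelia also express, fell by 2.86 against control (SE 0.26). In that comparison 1.40% of all genes fell. Without both arrays lacking Xist signal the Erbb3 difference was -3.12. The list summed to 656.1 and 890.8 in Ovol1/2 DKO, 2694 and 2597 on the labelled Ovol1 KO arrays and 1787 and 2554 in control.

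The Vim difference was followed through the processing choices. Over 19 alternatives it ran from 2.10 to 3.30 against control, passing in 7, and from 3.40 to 4.83 against the labelled Ovol1 KO arrays, passing in 15. Its sign held in all of them. Both counts include the fit without both arrays lacking Xist signal, whose replicate spread is that of the Ovol1/2 DKO pair. They also hold 1 fit more than once. Against control, leaving out either labelled Ovol1 KO array gave the same fit as only the groups compared (SE 0.40). Against the labelled Ovol1 KO arrays, leaving out either control array did likewise (SE 0.45). Cd44 stayed between -0.50 and -0.42 against control and Axl between -0.02 and 0.03, and neither passed in any.

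**Figure D5:**
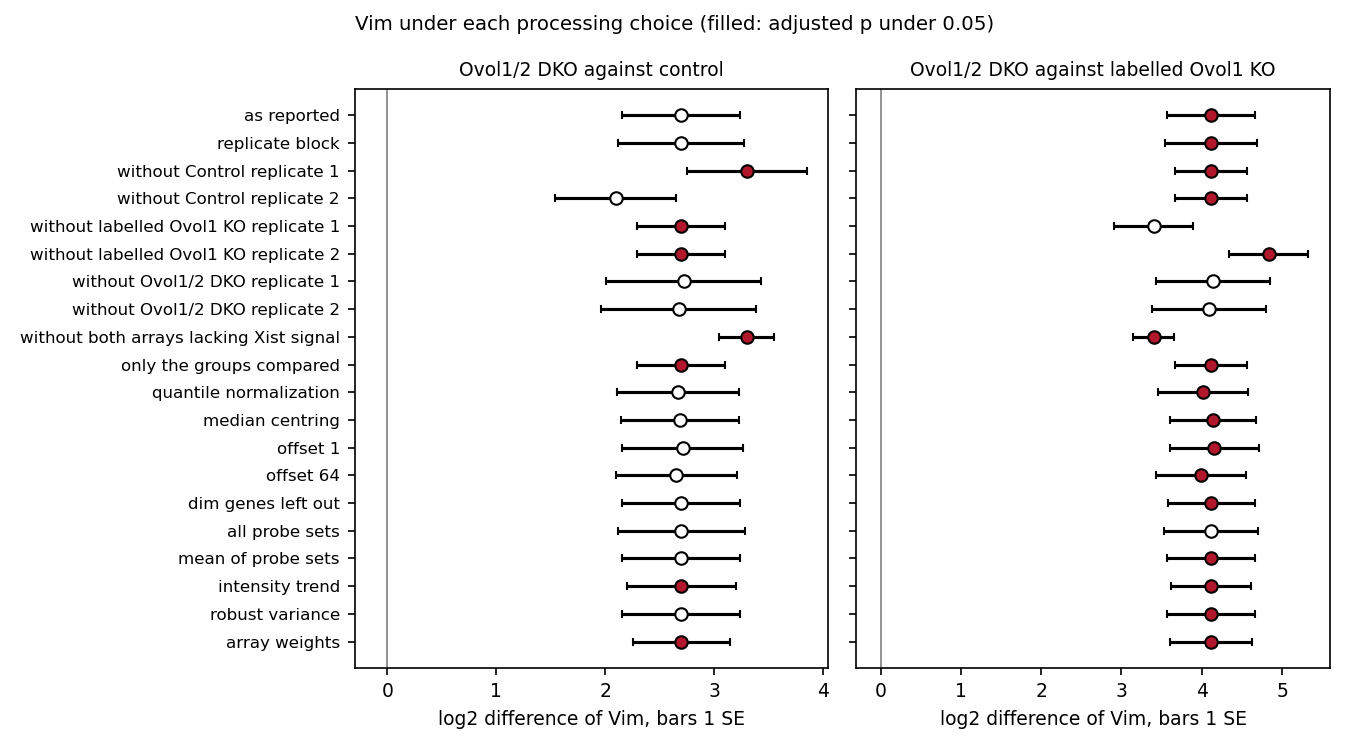
Log2 difference of Vim with bars of 1 SE under the fit as reported and each alternative, for Ovol1/2 DKO against control and against labelled Ovol1 KO; filled points passed at an adjusted p under 0.05. Every point lies at 2.10 or higher against control and at 3.40 or higher against labelled Ovol1 KO.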

How the data were processed

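The authors deposited linear probe set intensity values. The submitters' processing notes name Affymetrix Expression Console 1.1.1 and PLIER 2.0, and how background and scale were handled is not given in the sources used here. Of 35556 probe sets, a platform annotation gave 1 symbol to 21789, several to 1621 and none here to 12146. Current symbols came from a GRCm38.p6 table by Entrez identifier (91 identifiers had no match). For 999 genes with several probe sets the brightest on average was used, leaving 19938 genes.

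Levels are log2(intensity + 16). A single limma model fitted to the 6 arrays together (version 3.58.1, R 4.3.3, lmFit and eBayes, 3 residual and 3.68 prior degrees of freedom) gave all comparisons, with Benjamini-Hochberg adjustment over all genes and a threshold of 0.05. Exact tests of 2 against 2 arrays cannot give a two-sided p below 0.333. Arrays are biological replicates per the labels, each of pooled mice. The members, lists and alternatives were chosen with earlier results of these data known. Named were the 3 genes, genes of each list that passed (or those with the smallest p), and the 5 genes most like each by Pearson r; other list genes and markers were named after their values were seen. Scripts were tested on simulated data. Replicate numbers are not stated to mark a shared day or litter, so no block was used.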

Additional observations from a re-analysis of the deposited data

How the results depend on the processing

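Over 19 alternatives, Vim in Ovol1/2 DKO against control kept its direction and passed with only the groups compared (2.70), an intensity trend (2.70), array weights (2.70) and without both arrays lacking Xist signal (3.30, where the replicate spread is that of the Ovol1/2 DKO pair alone); leaving out 1 array gave 2.10 to 3.30. Against the labelled Ovol1 KO arrays it lost the call with all probe sets tested (4.12, adjusted p = 0.0637), and leaving out 1 array gave 3.40 to 4.83. Axl, near 0, changed sign with quantile normalization (-0.0226 against control, -0.0439 for Ovol1/2 DKO against labelled Ovol1 KO), with median centring (-0.0227 for labelled Ovol1 KO against control) and without both arrays lacking Xist signal (-0.10 for Ovol1/2 DKO against labelled Ovol1 KO); leaving out 1 array gave -0.10 to 0.13 in that comparison and -0.11 to 0.13 for labelled Ovol1 KO against control. Cd44 ran from -0.411 to 0.0668 with 1 array left out in Ovol1/2 DKO against labelled Ovol1 KO. The causes were not tested.

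Replicate numbers 1 and 2 recur in each group. Deviations of replicate 1 arrays correlated at 0.261, 0.490 and 0.194 between groups. With replicate number as a block, Vim was 2.70 higher than control (adjusted p = 0.0891) and 4.12 higher than the labelled Ovol1 KO arrays (adjusted p = 0.0217), and no call of the 3 genes changed.

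The count of genes passing in Ovol1/2 DKO against control was 403, and became 91 with all probe sets, 608 with array weights, 155 with an offset of 64 and 1395 without both arrays lacking Xist signal, with 99 to 455 when 1 array was left out. In Ovol1/2 DKO against labelled Ovol1 KO it was 628, and became 206 with all probe sets, 311 with an offset of 64, 1022 with the replicate block and 1508 without both arrays lacking Xist signal, with 135 to 831 when 1 array was left out. In labelled Ovol1 KO against control it was 0, and became 20 without both arrays lacking Xist signal and 0 to 3 when 1 array was left out. Among other named genes, Ovol2 changed sign without both arrays lacking Xist signal (0.60 for Ovol1/2 DKO against control), and Ovol1 (-0.15), Tead3 (-0.10), Tnc (0.0322) and Tyro3 (-0.17) did so in labelled Ovol1 KO against control, none passing. Leaving out 1 array gave, in labelled Ovol1 KO against control, -0.721 to 0.114 for Krt18, -0.537 to 0.0443 for Krt7, -0.236 to 1.16 for Ovol2, -0.932 to 0.105 for Pros1 and -0.143 to 0.996 for Tyro3, and, in Ovol1/2 DKO against control, -0.802 to 0.597 for Ovol2. The counts given without both arrays lacking Xist signal rest on 1 control and 1 labelled Ovol1 KO array. Their only replicate spread is that of the Ovol1/2 DKO pair. For labelled Ovol1 KO against control that count sets 1 array against 1, so no conclusion is drawn from it. Counts with 1 array left out rest on 1 array in the group that lost it.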
